A study of Mus musculus with 10 samples.

Results

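Mast cells are tissue-resident immune cells of the skin, and the 10 genes described here encode their stored proteases, their receptors and the enzyme that makes their histamine. They were chosen by gene symbol, with earlier results of these data known, and are 10 of the 47643 genes in the deposited tables. The proteases are Cpa3, Mcpt4, Cma1, Tpsb2 and Tpsab1, the receptor genes are Fcer1a, Ms4a2, Mrgprb1 and Mrgprb2, and the enzyme gene is Hdc.

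RNA was sequenced from 10 mouse melanomas, 5 with the gene of the tyrosine kinase Fes knocked out (Fes KO) and 5 with wild-type Fes (Fes WT). Fes KO tumours carried Tyr::CreERT2/+, BRafV600E/+ and Fes-/-, and Fes WT tumours carried Tyr::CreERT2/+, BRafV600E/+ and Fes+/+. Both groups therefore shared the inducible Cre and the activated Braf allele, and tumours were started in both by 4OH-Tamoxifen at 5 mM applied to back skin. The Tyr promoter drives the Cre in melanocytes, whereas the Fes-/- allele is not described as conditional, so loss of Fes is not stated to be limited to the tumour cells. The sources used here give neither strain nor age. They also do not say whether each tumour came from its own animal, so the tests rest on the variation among the 10 tumours, which may be partly technical. Fes is known to be phosphorylated in mast cells downstream of the IgE receptor and of Kit, the receptor for stem cell factor.

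Each tumour had between 13226783 and 16599120 counted reads, and 20505 to 22395 genes had at least 1 count. Fes itself was at 29.2 to 57.5 CPM (read counts scaled to library size) in Fes KO and at 72.4 to 102 CPM in Fes WT, with no overlap between the groups. Its log2 fold change was -1.06 (SE 0.19, adjusted p = 0.0846, edgeR's quasi-likelihood test with Benjamini-Hochberg adjustment over 14816 genes), so the labels' direction holds but reads were still counted to Fes in every Fes KO tumour. Skin and muscle content was uneven. The summed CPM of keratinocyte markers was 4504 in Fes KO 2, between 5.98 and 10.5 in the rest of that group, and 8.59 to 192 in Fes WT. The summed CPM of skeletal muscle markers was 1676 in Fes KO 2 and 13560 in Fes WT 3, against at most 327 in the other tumours. These values stand beside each result below that rests on Fes KO 2.

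A mature mast cell of connective tissue holds granules in which proteases are bound to heparin chains on the proteoglycan serglycin. Binding of antigen to IgE on its high-affinity receptor, or of basic peptides and some drugs to the receptor Mrgprb2, releases these granules together with histamine. Cpa3 encodes carboxypeptidase A3, Mcpt4 a chymase, Cma1 a chymase-family protease of elastase-like specificity in the mouse, and Tpsb2 and Tpsab1 encode tryptases. Fcer1a encodes the IgE-binding alpha chain and Ms4a2 the beta chain of the receptor, and Hdc encodes histidine decarboxylase, which makes histamine. Mrgprb1 is a close relative of Mrgprb2.

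The promoters of mast cell genes are known for GATA sites, bound by Gata2 and Gata1, and for E-box-like sites bound by Mitf. Promoter sequence of 250 bases before the transcription start was available for 8 of the 10 genes from RefSeq (GRCm38.p6). Upstream sequence is printed for the 4 of these genes that cover the 3 roles of granule exopeptidase, chymase and IgE receptor and that hold a GATA word. Each is given 5′ to 3′ on the gene's own strand, and capitals mark AGATAA or TGATAA on either strand and TATAAA on the gene's strand. The positions are chr3:20242182-20242431 for Cpa3, chr14:56062311-56062560 for Mcpt4, chr1:173227230-173227479 for Fcer1a and chr19:11623720-11623969 for Ms4a2, all on the minus strand.
Cpa3: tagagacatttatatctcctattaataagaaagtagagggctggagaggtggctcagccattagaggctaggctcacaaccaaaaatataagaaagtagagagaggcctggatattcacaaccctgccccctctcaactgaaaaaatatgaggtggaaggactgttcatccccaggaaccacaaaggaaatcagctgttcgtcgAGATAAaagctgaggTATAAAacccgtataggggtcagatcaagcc
Mcpt4: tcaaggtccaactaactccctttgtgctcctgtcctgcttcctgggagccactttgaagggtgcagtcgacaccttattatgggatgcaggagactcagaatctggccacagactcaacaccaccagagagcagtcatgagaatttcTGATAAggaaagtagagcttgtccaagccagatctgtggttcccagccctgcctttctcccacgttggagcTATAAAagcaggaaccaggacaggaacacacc
Fcer1a: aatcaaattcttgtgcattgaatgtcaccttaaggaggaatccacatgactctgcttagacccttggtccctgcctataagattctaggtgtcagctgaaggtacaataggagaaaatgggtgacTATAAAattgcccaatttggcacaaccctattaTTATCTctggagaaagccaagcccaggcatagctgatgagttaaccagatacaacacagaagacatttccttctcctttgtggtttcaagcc
Ms4a2: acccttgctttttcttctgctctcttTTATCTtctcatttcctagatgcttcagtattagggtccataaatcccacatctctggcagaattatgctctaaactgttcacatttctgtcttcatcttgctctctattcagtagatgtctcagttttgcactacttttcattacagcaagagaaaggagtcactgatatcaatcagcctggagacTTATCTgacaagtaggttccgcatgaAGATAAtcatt

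AGATAA or TGATAA, searched on both strands, occurred in 5 of the 8 promoters, those of Cpa3, Mcpt4, Fcer1a, Ms4a2 and Mrgprb2, against 16.6% of 32851 promoters of the same length. Ms4a2 held 3 such words, which begin 224, 37 and 11 bases before its start, and Cpa3 held 1, which begins 46 bases before its start. TATAAA on the gene's strand occurred in 3 of the 8, those of Cpa3, Mcpt4 and Fcer1a, against 7.59% of all promoters. In Cpa3 and Mcpt4 it begins 31 and 32 bases before the start. CACGTG or CATGTG, searched on both strands, occurred in 1 of the 8, that of Fcer1a, against 17.6% of all promoters. Hdc, Cma1 and Mrgprb1 held none of these words in their windows. These are matches of letters, and binding was not measured.

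All 10 genes passed the filter on low counts. None of them differed between the genotypes past the threshold of an adjusted p below 0.05 in edgeR's quasi-likelihood test, where 0.175% of all 14816 tested genes did and 0.128% did so with a lower level in Fes KO. DESeq2, which called 1.70% of the genes it tested, limma-voom, which called 0.776%, and limma on the deposited log2 values, which called 0.169%, called 0 of the 10 as well. Every one of the 10 log2 fold changes, taken as Fes KO minus Fes WT, was below 0, where 47.6% of all tested genes were below 0. Their median was -0.32, against 0.01 for all tested genes. Since most of the 10 genes vary together from tumour to tumour (below, Hdc and Tpsab1 less so), the shared sign is not 10 separate observations. At an unadjusted p below 0.05 in edgeR there were 2 of 10, Tpsab1 and Hdc, both lower in Fes KO, where 9.62% of all tested genes passed and 5.39% were lower. DESeq2 gave an unadjusted p below 0.05 for the same 2 and limma-voom for 1, Hdc. The groups overlapped for all 10 genes, while 1.90% of tested genes had groups that did not overlap. Standard errors of the log2 fold changes were 0.35 to 0.74, so differences of the size of the median could not be resolved with 5 tumours a group.

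**Figure D1:**
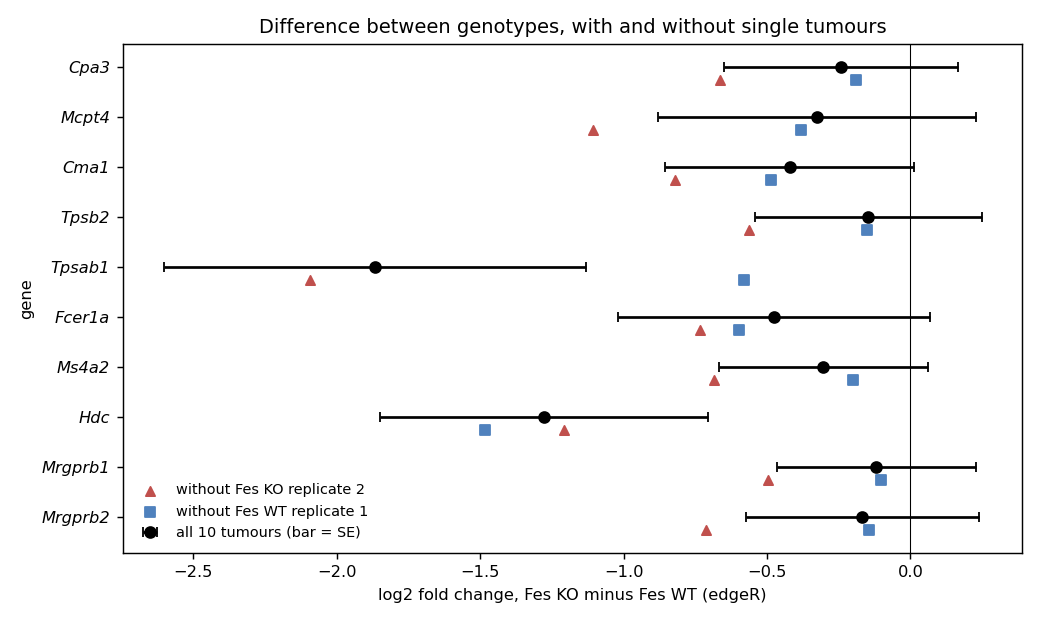
Log2 fold changes (Fes KO minus Fes WT) of the 10 mast cell genes from the edgeR fit, with bars of 1 standard error, beside the values without Fes KO 2 (triangles) and without Fes WT 1 (squares). All 10 main values lie below 0, from -1.87 for Tpsab1 to -0.12 for Mrgprb1, and none has an adjusted p below 0.05.

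Among the granule proteases, Cpa3 (ENSMUSG00000001865, chromosome 3, 20215620 to 20242181, GRCm38) was at 23.3, 55.2, 35.8, 13.3 and 11.6 CPM in Fes KO 1 to 5. In Fes WT 1 to 5 it was at 37.6, 44.0, 26.1, 23.0 and 33.9 CPM. The Fes KO tumours thus held both the highest value, in Fes KO 2, and the lowest, in Fes KO 5 and Fes KO 4, and enclosed the whole Fes WT range. The means were 27.8 ± 18.1 and 32.9 ± 8.53 CPM (SD, n = 5 each), with a log2 fold change of -0.24 with an SE of 0.41 (adjusted p = 0.881 in edgeR's quasi-likelihood test). In bulk tumour RNA, fewer mast cells and less of the RNA per mast cell cannot be told apart, here or for the genes that follow.

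The chymase gene Mcpt4 (ENSMUSG00000061068, chromosome 14, 56059629 to 56062313) was at 17.6, 72.3, 26.2, 10.6 and 10.1 CPM in Fes KO 1 to 5. In Fes WT 1 to 5 it was at 28.3, 47.7, 30.7, 15.6 and 49.2 CPM. Fes KO 2 was the highest tumour and lay 4.49-fold above the mean of the other 4 Fes KO tumours, 16.1 ± 7.55 CPM, and the groups overlapped. The log2 fold change was -0.33 (SE 0.55, adjusted p = 0.883, edgeR), and without Fes KO 2 it was -1.11 with an adjusted p of 0.312. Cma1 (ENSMUSG00000022225, chromosome 14, 55941451 to 55944675), which lies on the same chromosome, had 24.0, 47.6, 28.4, 11.6 and 11.4 CPM in Fes KO against 26.8, 47.5, 29.9, 15.1 and 45.5 CPM in Fes WT. Its highest tumours were Fes KO 2 and Fes WT 2, which were level, and its log2 fold change was -0.42 (SE 0.43, adjusted p = 0.787, edgeR). The ratio of Mcpt4 reads to Cma1 reads was 1.06, 1.00, 1.03, 1.03 and 1.08 in Fes WT 1 to 5, and 0.734, 1.52, 0.922, 0.910 and 0.879 in Fes KO 1 to 5. It was thus close to 1 in every Fes WT tumour, while in Fes KO it was below that in 4 tumours and above it in Fes KO 2, the tumour rich in keratinocyte markers, whose part in this was not tested.

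Tpsb2 (ENSMUSG00000033825, chromosome 17, 25366305 to 25369098), a tryptase, was at 42.0, 83.1, 43.3, 21.1 and 21.4 CPM in Fes KO 1 to 5. In Fes WT 1 to 5 it was at 45.7, 66.3, 35.8, 26.7 and 59.1 CPM. The order of the tumours was much that of Cpa3, with Fes KO 2 highest and Fes KO 4 and Fes KO 5 lowest, and the log2 fold change was -0.15 (SE 0.39, adjusted p = 0.928, edgeR).

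The neighbouring tryptase gene Tpsab1 (ENSMUSG00000024173, chromosome 17, 25343245 to 25345562) behaved otherwise in 1 tumour. It was at 3.97, 6.17, 5.36, 1.96 and 2.41 CPM in Fes KO 1 to 5 and at 48.9, 6.94, 3.87, 4.33 and 8.69 CPM in Fes WT 1 to 5. Fes WT 1, with 748 reads, lay 8.20-fold above the mean of the other Fes WT tumours, 5.96 ± 2.27 CPM, and 5.62-fold above the highest of all other tumours. The group means were 3.97 ± 1.82 and 14.5 ± 19.3 CPM, with a log2 fold change of -1.87 with an SE of 0.74 (unadjusted p = 0.0292, adjusted p = 0.466, edgeR). Without Fes WT 1 the log2 fold change was -0.58 with an adjusted p of 0.790, so the size of the fitted difference rests on that tumour.

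The excess of Tpsab1 in Fes WT 1 was not shared by Tpsb2, which was at 45.7 CPM there. The ratio of Tpsab1 reads to Tpsb2 reads was 1.07 in Fes WT 1 and between 0.0743 and 0.162 in the other 9 tumours. Of 78 tested genes within 1 Mb of Tpsab1, the ratio of Fes WT 1 to the median of the other 9 tumours had a median of 0.955 and a highest value of 3.93, against 11.3 for Tpsab1. Over all 14816 tested genes, 2 in Fes WT 1, Tpsab1 included, stood at least 5.62-fold above every other tumour, or 0.0135%. The same count was 108 in Fes KO 2 and 56 in Fes WT 3, the tumours rich in keratinocyte or muscle markers, and at most 6 in each of the others. As background, C57BL/6 mice are known to lack the mature Tpsab1 transcript because of a splice-site change that other strains do not carry. The sources used here name no strain for any tumour, and whether strain bears on this value was not tested.

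The coding sequences of Tpsab1 and Tpsb2 are 75.9% identical over 818 aligned bases, so reads could in part be assigned to either gene or to neither. The longest stretch they share is 39 bases, at coding positions 301 to 339 of Tpsab1 (GENCODE M21), and is printed because a read that lies within it could not be told apart by its letters.
Tpsab1 and Tpsb2: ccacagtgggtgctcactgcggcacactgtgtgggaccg
The other near copies limit their counts in the same way. Mcpt4 is 86.4% identical to Mcpt1 and 79.4% to Mcpt2 in coding sequence, and Mrgprb1 is 85.1% identical to Mrgprx2.

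**Figure D2:**
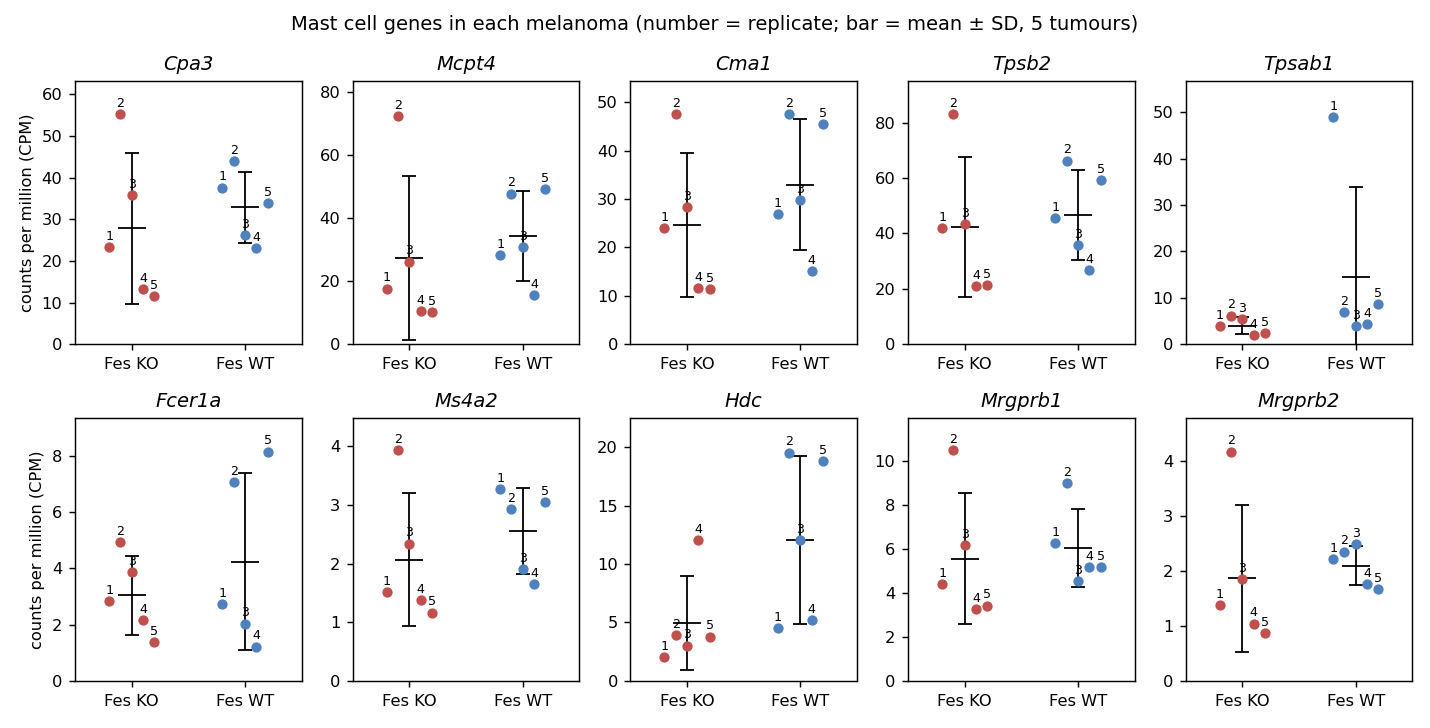
CPM of each of the 10 mast cell genes in every tumour, one panel a gene, with the group mean and SD (n = 5 each), the axis starting at 0, where the Fes WT bar of Tpsab1 is cut off. Groups overlap in every panel, Fes KO 2 is the highest tumour for 7 genes, and Fes WT 1 stands apart for Tpsab1 at 48.9 CPM.

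Among the receptor genes, Fcer1a (ENSMUSG00000005339, chromosome 1, 173221284 to 173227214) was at 2.84, 4.93, 3.88, 2.16 and 1.38 CPM in Fes KO 1 to 5. In Fes WT 1 to 5 it was at 2.74, 7.06, 2.03, 1.22 and 8.16 CPM. Fes WT 5 and Fes WT 2 were highest and Fes WT 4 lowest, so the Fes WT tumours enclosed the Fes KO range. The log2 fold change was -0.48 (SE 0.54, adjusted p = 0.809, edgeR). Its median was higher in Fes KO than in Fes WT, the exception among the 10 genes.

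Ms4a2 (ENSMUSG00000024680, chromosome 19, 11615523 to 11623719), the beta chain, was at 1.51, 3.93, 2.34, 1.37 and 1.17 CPM in Fes KO against 3.27, 2.93, 1.90, 1.65 and 3.05 CPM in Fes WT. Fes KO 2 was highest and Fes KO 5 lowest, and the log2 fold change was -0.30 with an SE of 0.36 (adjusted p = 0.819, edgeR). The reads of Fcer1a per read of Ms4a2 ran from 0.741 to 2.68 over the tumours, a wider spread than that of Ms4a2 per read of Cpa3, 0.0649 to 0.103.

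Mrgprb2 (ENSMUSG00000050425, chromosome 7, 48550965 to 48558086) was at 1.39, 4.18, 1.85, 1.05 and 0.875 CPM in Fes KO against 2.22, 2.35, 2.49, 1.77 and 1.68 CPM in Fes WT. The 5 Fes WT tumours lay close together, while Fes KO 2 was above and Fes KO 1, 4 and 5 were below all of them. The log2 fold change was -0.17 (SE 0.41, adjusted p = 0.921, edgeR). Mrgprb1 (ENSMUSG00000070547, chromosome 7, 48444113 to 48456342) ran from 3.27 to 10.5 CPM in Fes KO and from 4.53 to 8.97 CPM in Fes WT, with a log2 fold change of -0.12 with an SE of 0.35 (adjusted p = 0.934, edgeR).

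Hdc (ENSMUSG00000027360, chromosome 2, 126593667 to 126619299) had another order of tumours. It was at 2.02, 3.93, 3.02, 12.0 and 3.79 CPM in Fes KO 1 to 5 and at 4.51, 19.5, 12.1, 5.19 and 18.8 CPM in Fes WT 1 to 5. Of the Fes KO tumours, 4 lay below every Fes WT tumour, and Fes KO 4 lay above Fes WT 1 and Fes WT 4. The means were 4.96 ± 4.03 and 12.0 ± 7.18 CPM, with a log2 fold change of -1.28 with an SE of 0.57 (unadjusted p = 0.0489, adjusted p = 0.516, edgeR). Without Fes KO 4 it was -1.91 with an adjusted p of 0.181. Fes KO 4 was among the lowest tumours for Cpa3, Mcpt4 and Tpsb2, and its Hdc reads were 0.906 per Cpa3 read, whereas the rest of the group had 0.0712 to 0.327 and Fes WT 0.120 to 0.555. The summed CPM of macrophage markers ranged from 697 to 1601 in Fes KO and from 1057 to 2543 in Fes WT. By tumour this sum was 745, 1552, 697, 1601 and 704 in Fes KO 1 to 5. In Fes WT 1 to 5 it was 2543, 1403, 1956, 1057 and 1999. None of those markers was at 0 in all tumours, Hdc is known to be made by other myeloid cells as well, and their part in the Hdc values was not tested.

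Per kilobase of exon, the 10 genes fell into a high and a low set. In Fes WT, Mcpt4 at 31.0 ± 12.8, Cma1 at 30.3 ± 12.4 and Tpsb2 at 29.3 ± 10.2 CPM per kb did not differ beyond their spread, and Cpa3 followed at 21.7 ± 5.63. Tpsab1 at 6.94 ± 9.21 and Fcer1a at 4.25 ± 3.15 CPM per kb came next. Without Fes WT 1, Tpsab1 was at 2.85 ± 1.08 CPM per kb (n = 4), below Fcer1a, and in Fes KO it was at 1.90 ± 0.870 against 3.04 for Fcer1a. That order rests on the summed exon lengths, 2094 bases for Tpsab1 and 998 for Fcer1a. In CPM, Tpsab1 was the higher, at 5.96 in Fes WT without Fes WT 1 against 4.24 for Fcer1a in Fes WT. In Fes KO it was at 3.97 against 3.04 CPM. Hdc at 1.88 ± 1.12, Mrgprb1 at 1.44 ± 0.421, Mrgprb2 at 1.01 ± 0.174 and Ms4a2 at 0.910 ± 0.260 CPM per kb were lowest. The ranges of mean ± SD of neighbours in this order overlapped. The place of Hdc also rests on its exon length of 6389 bases, as it was at 12.0 CPM in Fes WT. In Fes KO the same 4 proteases were highest, from 26.5 ± 15.9 CPM per kb for Tpsb2 to 18.4 ± 11.9 for Cpa3, and Ms4a2 was again lowest at 0.734 ± 0.403. The granule proteases other than Tpsab1 were thus far above the receptors in both genotypes.

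Whether the genes vary together from tumour to tumour was asked by comparing each with Cpa3 over the 10 tumours, in log2 CPM. For Mcpt4, Cma1, Tpsb2, Ms4a2, Mrgprb1 and Mrgprb2, Pearson's r was 0.893 to 0.940 and Spearman's rho 0.830 to 0.939. The permutation p-values of these 6, adjusted over the 9 relations computed, were at most 5.7e-04 for r and 0.0066 for rho. Leaving out the 2 tumours farthest from the median of Cpa3, Fes KO 4 and Fes KO 5, r was 0.743 to 0.934. Fcer1a had r = 0.722 and rho = 0.721 (permutation p = 0.019 for r, adjusted 0.024), and r = 0.689 without these 2 tumours.

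Tpsab1 and Hdc departed from this. Tpsab1 had r = 0.630 (permutation p = 0.048, adjusted 0.054) but rho = 0.794 (permutation p = 0.009, adjusted 0.012), and without Fes WT 1 its r was 0.889. Without Fes KO 4 and Fes KO 5 its r was 0.373, with Fes WT 1 still among the tumours. Fes WT 1 lowers the value over all tumours. No fit left out Fes WT 1 together with Fes KO 4 and Fes KO 5. How far the relation rests on Fes KO 4 and Fes KO 5 therefore cannot be told from these values. Hdc had r = 0.081 and rho = 0.176 (permutation p = 0.82 for r), and r = 0.172 without the 2 farthest tumours. The 10 points share library size scaling and come from both genotypes.

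**Figure D3:**
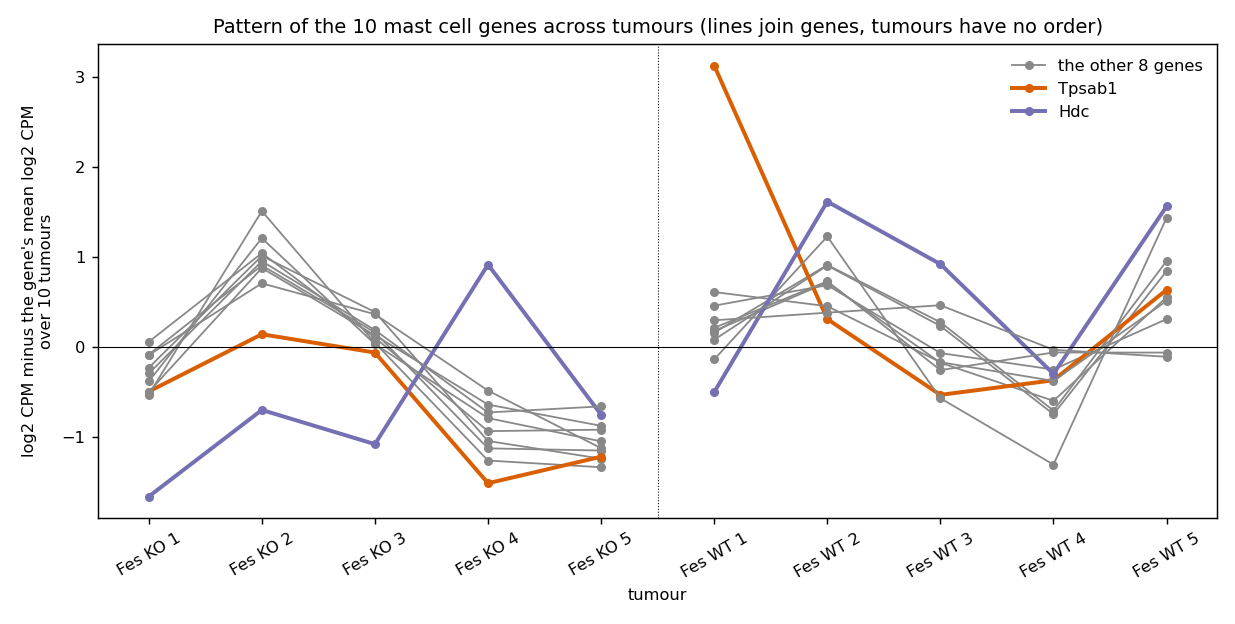
Log2 CPM of the 10 mast cell genes in the 10 tumours, each gene as the difference from its own mean over the tumours, with lines joining the points of a gene. The 8 genes in grey are high in Fes KO 2 and low in Fes KO 4 and Fes KO 5, while Hdc is high in Fes KO 4 and Tpsab1 in Fes WT 1.

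Read ratios within a tumour describe the makeup of the mast cell RNA apart from its amount. Over the 10 tumours the ratio to Cpa3 varied 1.59-fold for Tpsb2 and for Ms4a2, 1.93-fold for Mrgprb1 and for Mrgprb2, 2.04-fold for Cma1 and 2.14-fold for Mcpt4, while Cpa3 itself varied 4.76-fold. It varied 4.53-fold for Fcer1a, 11.6-fold for Tpsab1 and 12.7-fold for Hdc. The amount, taken as the summed CPM of the 10 genes, was 123, 292, 156, 78.5 and 67.5 in Fes KO 1 to 5 and 206, 253, 149, 99.7 and 233 in Fes WT 1 to 5. Fes KO 2 was the highest of all tumours and Fes KO 5 and Fes KO 4 the lowest, so the genotypes overlapped. Fes KO 5 was among the 2 lowest tumours for 9 of the 10 genes and Fes KO 4 for 8.

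**Figure D4:**
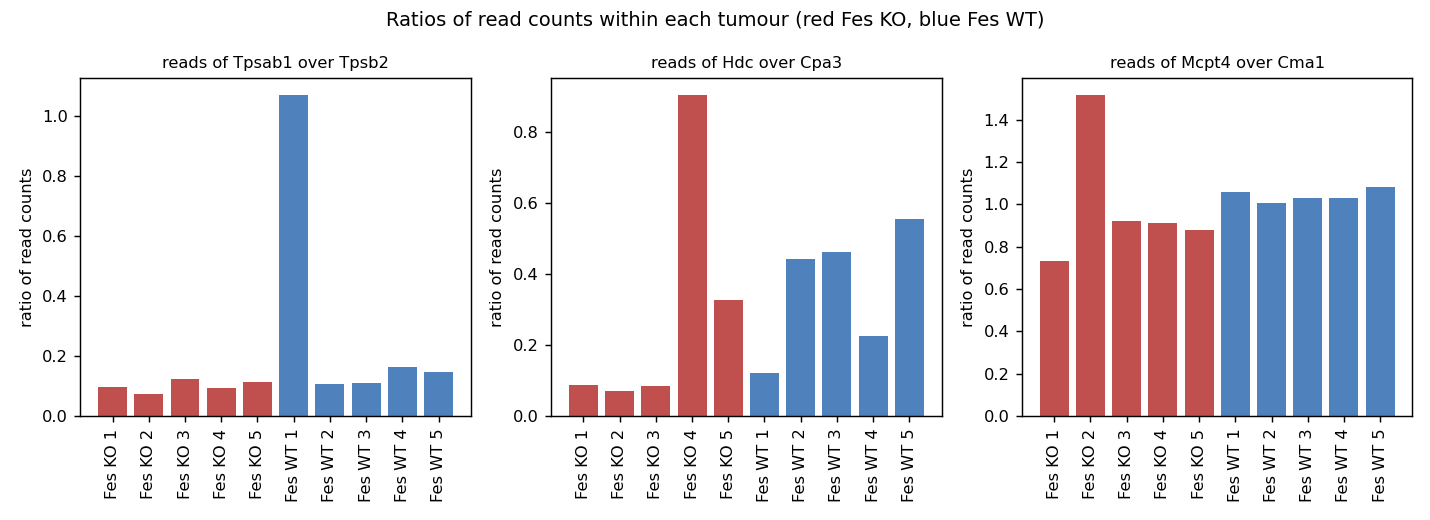
Ratios of read counts in each tumour, on linear axes from 0, for Tpsab1 over Tpsb2, Hdc over Cpa3 and Mcpt4 over Cma1, with Fes KO bars in red and Fes WT bars in blue. Tpsab1 per Tpsb2 read is 1.07 in Fes WT 1 against at most 0.162 elsewhere, and Hdc per Cpa3 read is highest in Fes KO 4 at 0.906.

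The count of 0 called genes does not rest on Fes KO 2, the tumour rich in keratinocyte markers. Without it, the median log2 fold change of the 10 genes was -0.72 instead of -0.32, and the adjusted p values in edgeR's quasi-likelihood test ran from 0.312 for Mcpt4 to 0.681 for Fcer1a. With skin and muscle transcript levels as covariates the median was -0.61, and without Fes KO 2 and Fes WT 3 it was -0.81, again with 0 of 10 called. Other single tumours moved the median towards 0, to -0.13 without Fes KO 5, -0.16 without Fes KO 4, -0.19 without Fes WT 2 and -0.21 without Fes KO 1.

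Of 66 genes in 7 further lists on mast cells and their gene families, 38 could be tested and 0 differed past the threshold in edgeR's quasi-likelihood test, with 9 at an unadjusted p below 0.05 (23.7% against 9.62% of all tested genes). DESeq2 called 1, Gzmb, and limma-voom 2, Maob and Gzmc. In the list of other mast cell genes, 15 of 18 were tested and 11 were below 0, with a median log2 fold change of -0.24. The 4 with the highest CPM were Ndst2, which encodes a heparin-sulfating enzyme, Srgn, which encodes serglycin, the transcription factor gene Mitf and the prostaglandin D synthase gene Hpgds. Hpgds was at 15.4 ± 6.46 CPM in Fes KO against 27.6 ± 12.5 CPM in Fes WT (log2 fold change -0.84, SE 0.37, adjusted p = 0.509, edgeR). Ndst2, Srgn and Mitf had log2 fold changes of 0.08, -0.45 and -0.10, and all of these are made by other cells too.

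The factors that feed or activate mast cells were measured in the same tumours. Kitl, which encodes the Kit ligand needed for mast cell survival, was at 84.1 ± 17.3 CPM in Fes KO against 85.0 ± 19.5 CPM in Fes WT, with a log2 fold change of -0.02. Il33, which encodes an alarmin that activates mast cells through ST2, was at 52.6 ± 32.2 and 85.5 ± 17.2 CPM, with a log2 fold change of -0.70 with an SE of 0.37 (adjusted p = 0.585, edgeR). Il3 and Il9 had 0 counts in every tumour.

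Of the 13 genes for signalling below the IgE receptor, 13 were tested and 11 were below 0, with a median log2 fold change of -0.48. Fyn, Plcg1 and Gab2, which had the highest CPM of the list, had log2 fold changes of 0.12, 0.38 and -0.12. Fcer1g, the gene of the receptor's gamma chain, which macrophages also express, was at 42.7 ± 19.0 CPM in Fes KO against 63.8 ± 22.2 CPM in Fes WT, with a log2 fold change of -0.58. Macrophage markers had a summed CPM of 697 to 1601 in Fes KO and of 1057 to 2543 in Fes WT, so the groups overlapped. All 6 of these markers had log2 fold changes below 0, with a median of -0.73. In edgeR, 3 of the 6 had an unadjusted p below 0.05, where 9.62% of all tested genes did, and 0 were called. The part of macrophages in these values was not tested.

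Of the 5 genes of mucosal mast cells and basophils, 1 passed the filter, Cd200r3, with 8 to 37 reads a tumour and a log2 fold change of 0.09. Its r with the mean of the 10 genes was 0.817. Prss34 had at most 6 reads, Mcpt1 had at most 7 reads and Mcpt8 at most 9 in any tumour. Mcpt2 had 83 reads in Fes WT 5 and at most 13 in the others, and Fes WT 5 also held the highest Fcer1a. At the chymase locus, which holds genes of the granzyme family beside Mcpt4 and Cma1, Mcpt9 had 0 counts throughout, Ctsg had at most 1 read and Cma2 at most 10. The cytotoxic cell granzyme genes there, Gzmb and Gzmc, were tested and had log2 fold changes of -2.89 (SE 0.82, adjusted p = 0.313) and -2.36 (SE 1.01, adjusted p = 0.502) in edgeR. At the tryptase locus none of 5 further genes passed the filter, Prss28 and Prss29 had 0 counts, and Tpsg1, a membrane-anchored tryptase gene, had 1 to 29 reads. Of 14 further Mrgpr genes 2 were tested, Mrgpre with a log2 fold change of -0.45 with an SE of 0.20 (adjusted p = 0.516, edgeR) and Mrgprf with 0.07, and 5 had 0 counts.

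Over all other tested genes, the one most like the mean log2 CPM of the 10 mast cell genes was Il1rl1, which encodes ST2, the receptor of interleukin-33 that mast cells carry, with r = 0.942 over 10 tumours. It was at 11.3 ± 3.38 CPM in Fes KO against 14.2 ± 2.75 CPM in Fes WT, with a log2 fold change of -0.34 with an SE of 0.22 (adjusted p = 0.646, edgeR). The next were Pet100 (r = 0.887), Mmp11 (0.872), C1qtnf2 (0.869), Phf24 (0.863), Il11ra1 (0.862), 2210016F16Rik (0.851), Osr1 (0.850), Mrgprx2 (0.847) and Kif5c (0.846). The Mrgprx2 value may in part be that of Mrgprb1, whose coding sequence is close to it. For scale, each of Ms4a2, Mcpt4, Cma1, Cpa3 and Tpsb2 had r = 0.924 to 0.957 with the mean of the other 9 genes. Mrgprb1 had 0.831, Fcer1a 0.786, Mrgprb2 0.779, Tpsab1 0.511 and Hdc 0.193, all below the 10 genes just named. Kit, which melanocytes also express, had r = 0.397 with the mean of the 10 genes. It was at 19.3 ± 11.5 CPM in Fes KO against 12.8 ± 3.54 CPM in Fes WT (log2 fold change 0.59, SE 0.37, adjusted p = 0.630, edgeR). Fes KO 2, the tumour rich in keratinocyte markers, was highest at 38.5 CPM. Among melanocyte markers, Fes KO 2 was also highest for Dct at 325 CPM and Tyr at 51.1 CPM, against at most 47.0 and 6.66 CPM elsewhere. It was likewise highest for Pmel, Mlana and Tyrp1, but lowest for Sox10 at 392 CPM. The part of melanocytes or keratinocytes in the Kit values was not tested. The Fes KO median of Kit, 12.5 CPM, was below that of Fes WT, 14.3 CPM.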

How the data were processed

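RNA of 10 mouse melanomas was sequenced, 5 per genotype, with groups and replicate numbers taken from the sample titles. The authors deposited 2 tables, one of raw counts of reads and one of log2 values. The tools FastQC, STAR 2.51b and Subread 1.4.6 and the builds mm10 and GRCm38 come from the submitters' processing notes, while settings and strand rule were not given in the sources used here. Of the 10 genes Cpa3 alone overlaps another, Mir7007, which lies on the same strand, so a strand rule would not separate their reads. The deposited log2 values match, to within 5.01e-11, counts over median-of-ratios size factors with 1 added before the log2.

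Counts were tested with edgeR 4.0.16 in R 4.3.3 (TMM, filterByExpr with the group, quasi-likelihood F test, 2-sided) on all 10 tumours, with no covariate and with Benjamini-Hochberg adjustment over the 14816 genes tested. CPM uses TMM-scaled library sizes, and log2 CPM a prior count of 2. CPM per kb divides by the summed exon length in GENCODE M21 (GRCm38), which also gave coordinates and coding sequences. Promoters came from RefSeq (GRCm38.p6). Correlations used 100000 permutations, 2-sided.

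The 10 genes and the further lists were chosen with earlier results of these data known. Named beside the 10 genes were Fes, up to 4 genes of each list (called genes, then the highest CPM) and the 10 genes most like the mean of the 10, and other names were added after their values were seen. Tested on simulated counts of 14816 genes for the comparison of the genotypes, the fit recovered 45% of 2-fold and 85% of 4-fold changes, and 4 of its 134 calls were unchanged genes. Alternatives were DESeq2 1.42.0, limma 3.58.1 (voom, and on the deposited log2 values), other normalizations and filters, covariates, a replicate block, and leaving out tumours. No sample was left out of the main results. A part of the genotype that both groups share and a gene of the further lists are not reported here.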

Additional observations from a re-analysis of the deposited data

Results flagged for a closer look

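Samples far from the other tumours of their group were found for 3 of the 10 genes and for 4 list values, by a gap to the nearest tumour of more than 0.71 of the group's range, which chance gives in about 1 in 20 groups. Mcpt4 was at 72.3 CPM in Fes KO 2, against at most 26.2 CPM in the other Fes KO tumours. Tpsab1 was at 48.9 CPM in Fes WT 1, against at most 8.69 CPM in the other Fes WT tumours. Hdc was at 12.0 CPM in Fes KO 4, against at most 3.93 CPM in the other Fes KO tumours.

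The mucosal mast cell and basophil list summed to 7.70 CPM in Fes WT 5, of which Mcpt2 made up 6.33 CPM, against at most 1.63 CPM in the other Fes WT tumours. Keratinocyte markers summed to 4504 CPM and skeletal muscle markers to 1676 CPM in Fes KO 2. Skeletal muscle markers summed to 13560 CPM in Fes WT 3.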

How the results depend on the processing

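None of the 10 genes was called in any of 21 alternatives, and 203 of the 210 log2 fold changes kept their direction. The other 7 turned on leaving out 1 tumour, over which Tpsb2 ran from -0.56 to 0.024, Mrgprb1 from -0.50 to 0.070 and Mrgprb2 from -0.71 to 0.012, and the correlation of Hdc with Cpa3 ran from -0.10 to 0.27. Genes called over the whole table were 26 (7 higher, 19 lower), against 295 with DESeq2 (97 higher, 198 lower), 115 with limma-voom (31 and 84), 122 with tissue covariates (68 and 54), 64 without the 3 Xist-expressing tumours (36 and 28), and 10 to 54 on leaving out 1 tumour. In the further lists 0 were called, against 1 with DESeq2, 2 with limma-voom and 0 to 1 on leaving out 1 tumour (Maob without Fes KO 2, log2 fold change -1.78). The cause was not tested. With the replicate number as a block, 4 genes were called and the median of the 10 genes was -0.42. Same-numbered tumours deviated together with r from -0.38 to 0.17 and 1 of 10 correlated best with its own number, so the numbers do not pair the tumours. Alternatives for the correlations were added after seeing the data, and the unadjusted permutation p of Tpsab1 was above 0.05 in 9 of 12, of which 8 were among the 10 that leave out 1 tumour. At 5 tumours a group many 2-fold differences would be missed, and Ms4a2 and Mrgprb2 rest on as few as 16 and 12 reads in a tumour.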
